A study of Arabidopsis thaliana with 4 samples.

Results

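Group IX of the ethylene response factor (ERF) family holds plant transcription factors, most of which activate transcription and many of which are induced by ethylene, jasmonate, pathogens or osmotic stress. The 7 genes described here are ERF1 (AT3G23240), ERF2 (AT5G47220), ERF5 (AT5G47230), ERF6 (AT4G17490), ERF15 (AT2G31230), ERF104 (AT5G61600) and ERF105 (AT5G51190). They are 7 of 27444 nuclear protein-coding genes of Arabidopsis thaliana, and were fixed by locus code. The set was chosen on the SMXL6 peaks near them, with results of these data known. For each gene every peak within 5000 bp was taken, so the presence, position, score and rank of these peaks describe the genes and were not tested.

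SMXL6 binding was profiled by chromatin immunoprecipitation and sequencing with a polyclonal anti-HA antibody in whole seedlings aged 2 weeks. All 4 libraries came from plants mutant in the native genes of SMXL6, SMXL7 and SMXL8, strigolactone signalling repressors that are degraded once the hormone is perceived. In 2 of them the genotype was smxl6/7/8 pSMXL6:SMXL6-HA, a transgenic line with HA-tagged SMXL6 under the SMXL6 promoter, and in the other 2 it was smxl6/7/8 without the transgene. The authors set each tagged library against the control of the same number, which gave list 1 with 1789 peaks and list 2 with 1442 peaks. Whether the 2 libraries of a genotype came from separately grown seedlings is not stated, and read depth is unknown, so a gene without a peak may carry binding below the limit of detection.

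Each peak carries a score, the authors' own value from the peak caller, which was used only to describe and rank peaks within a list. Scores ran from 50.01 to 3100 with a median of 92.0 in list 1, and from 20.72 to 3100 with a median of 89.2 in list 2. Peaks of list 1 were wider, with a median of 2824 bp against 1236 bp. Overlap with the other list, by at least 1 bp, was found for 54.9% of the peaks in list 1 and 74.7% of those in list 2. The peak ranked first in both lists covered 100% and 96.2% of SMXL6 itself, the gene that the transgene adds. Positions are given on TAIR10, counted from 1, and "below" and "above" mean toward lower and higher coordinates, since the strand of the genes was not used here.

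Ethylene is perceived by receptors in the endoplasmic reticulum, and its signal stabilises the transcription factors EIN3 and EIL1. ERF1 is a direct target of EIN3 and, like ORA59, activates defensin and chitinase genes in response to ethylene and jasmonate together. ERF proteins of this group bind the GCC box through their AP2/ERF domain, and several of them, among them ERF6 and ERF104, are substrates of the stress-activated kinases MPK3 or MPK6.

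Of the 7 genes, ERF15 and ERF104 had peaks within 5000 bp in both lists, ERF2 and ERF6 had a peak in list 1 and none in list 2, and ERF1, ERF5 and ERF105 had none in either. The share with a peak in both lists was 28.6% (2 of 7), beside 12.2% of all nuclear protein-coding genes. In list 1 the share was 57.1% (4 of 7), beside 21.4% of all genes, and in list 2 it was 28.6% (2 of 7), beside 15.4%. A peak in list 1 only was found for 28.6% (2 of 7), beside 9.26% of all genes, and no peak for 42.9% (3 of 7), beside 75.3%. Because peaks near these genes were part of how they were chosen, nothing is read from the difference to all genes. In all, 5 distinct peaks of list 1 and 3 of list 2 lay near the 7 genes, and 3 of those 5 and all 3 of list 2 overlapped a peak of the other list. Of all peaks, 54.9% in list 1 and 74.7% in list 2 did so.

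**Figure D1:**
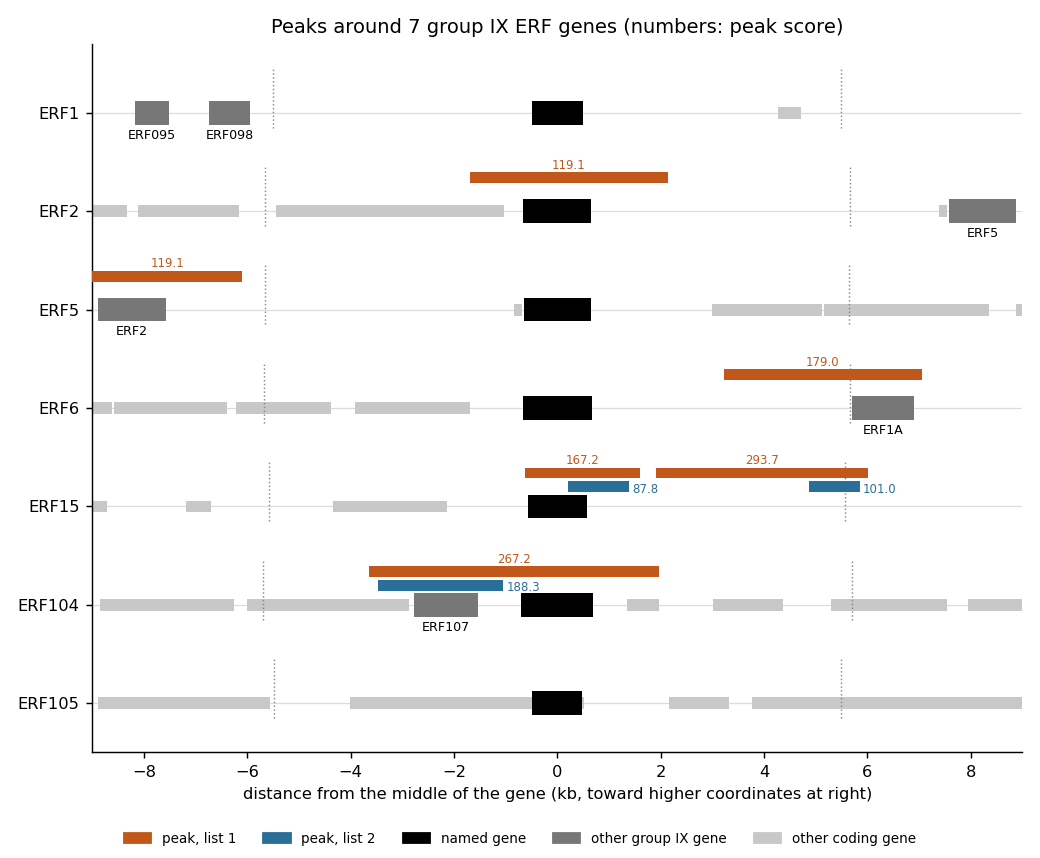
Peaks of list 1 (orange) and list 2 (blue) around the 7 genes, by distance in kb from the middle of each gene (black), with other group IX genes in dark grey, other protein-coding genes in light grey and dotted lines 5000 bp from the gene ends. The numbers are peak scores. ERF15 and ERF104 have peaks of both colours, and the list 1 peak beside ERF6 runs over ERF1A.

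ERF15 is a regulator of abscisic acid responses and of immunity. It was the gene of the 7 whose own body and flank carried peaks in both lists. In list 1 a peak at chromosome 2, 13306370 to 13308598, covered 100% of the gene and 1026 bp beyond its upper end, with a score of 167.16 and rank 381. In list 2 a peak at 13307214 to 13308397 covered the upper 31.4% of the gene and extended 825 bp past it, with a score of 87.83 and rank 744. The second of these was contained in the first and took up 53.1% of it, so both lists placed a peak over the upper end of ERF15.

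A further peak stood above ERF15 in each list. In list 1 it spanned 13308901 to 13313018, began 1329 bp above the gene and had a score of 293.72 with rank 139, the highest score near any of the 7 genes. In list 2 it spanned 13311876 to 13312849, began 4304 bp above the gene and had a score of 101.05 with rank 638. The narrower peak of list 2 was again contained in that of list 1, in its upper part, and took up 23.7% of it. These peaks fell in a stretch of 9698 bp above ERF15 without a protein-coding gene, and for each of the 4 peaks the nearest gene end was that of ERF15. Whether this stretch is the promoter or the downstream side of ERF15 was not resolved, since strand was not used here.

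ERF104 is a substrate of MPK6 that takes part in responses to bacterial flagellin. In list 1 a peak at chromosome 5, 24763386 to 24769004, covered 100% of ERF104, with a score of 267.23 and rank 169. It was 5619 bp wide, 1.99 times the median of its list, and also covered 100% of ERF107, 99.0% of AT5G61605 and 25.0% of PFK4, a phosphofructokinase gene. In list 2 a peak at 24763568 to 24765991 ended 353 bp below ERF104, with a score of 188.29 and rank 285. That peak covered 100% of ERF107 and 19.2% of PFK4 and no part of ERF104.

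ERF107, also known as DEWAX, restrains wax synthesis and is the neighbour of ERF104, with 832 bp between them. The middle of the list 1 peak had its nearest gene end at ERF104, and the middle of the list 2 peak lay inside ERF107. The wide list 1 peak therefore counts for both genes. The part found in both lists lies over 19.2% of PFK4, over ERF107 and in the interval next to ERF104. The ERF104 peaks stood among the 447 highest-scoring of list 1 and the 360 highest-scoring of list 2.

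ERF2, an activator induced by jasmonate and ethylene, lay under a list 1 peak at chromosome 5, 19170602 to 19174436. It covered 100% of the gene and 28.5% of AT5G47210, with a score of 119.07 and rank 621. The nearest list 2 peak was 43272 bp away, so the 2 lists differed at this gene. Among the 447 list 1 peaks with scores from 92.15 to 149.57, which include this one, 60.6% overlapped a peak of list 2.

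ERF5, with ERF6 a regulator of leaf growth under osmotic stress and of defence against fungi, is the group IX neighbour of ERF2, with 6924 bp and 1 annotated protein-coding gene between them. The list 1 peak over ERF2 ended 5445 bp below ERF5, just outside the limit of 5000 bp, and the list 2 peak that began 4304 bp above ERF15 was the farthest inside it among the peaks of the 7 genes. No other peak lay within 10000 bp of ERF5, and the nearest list 2 peak stood 35046 bp away. ERF5 thus differed from its neighbour ERF2 in list 1 and resembled it in having no list 2 peak near it.

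ERF6 had a single list 1 peak, at chromosome 4, 9756708 to 9760555, which began 2547 bp above the gene and had a score of 179.01 with rank 339. This peak covered no part of ERF6 and 100% of ERF1A (AT4G17500), its group IX neighbour, which also had the nearest gene end. With 5041 bp between ERF6 and ERF1A and no protein-coding gene in that interval, the peak covered the upper part of the interval and the whole of ERF1A. The nearest list 2 peak lay 13934 bp below ERF6. Of the 447 highest-scoring peaks of list 1, to which this peak belongs, 87.0% overlapped a peak of list 2, and this one did not.

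**Figure D2:**
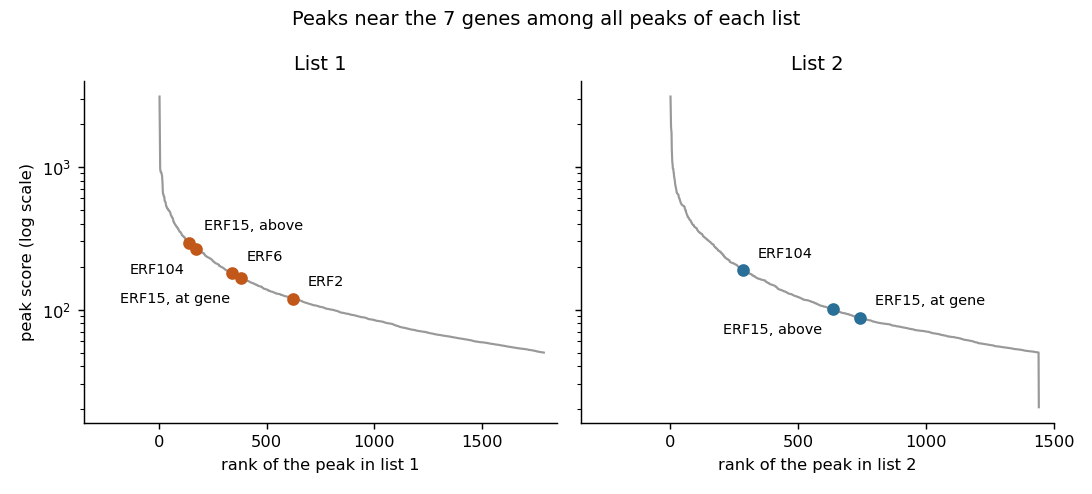
Score of every peak (grey line, log scale) against its rank in list 1 and in list 2, with the peaks within 5000 bp of the 7 genes as points. The peak above ERF15 (rank 139) and the ERF104 peak (rank 169) stand highest in list 1, and the ERF104 peak (rank 285) stands highest in list 2.

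ERF1 had no peak within 10000 bp. The nearest list 1 peak was 11997 bp above it, with a score of 72.2, and the nearest list 2 peak was 81443 bp below it, with a score of 58.28. ERF1 lies beside ERF098 and ERF095 on chromosome 3, group IX genes that had no peak within 10000 bp either. Over all nuclear protein-coding genes, 63.5% had no peak of either list within 10000 bp.

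ERF105, which contributes to freezing tolerance, was the farthest of the 7 from a list 1 peak, at 59612 bp, and lay 59680 bp from the nearest list 2 peak, nearer than ERF1. Those nearest peaks both lay above the gene, with scores of 76.69 and 226.37. ERF105 lies within the annotated span of another gene, AT5G51180, and therefore has no free flank on its lower side (its overlap counts as a negative distance below).

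The 7 genes were short, with a median length of 1302 bp and a range of 965 to 1389 bp, against a median of 2078 bp over all nuclear protein-coding genes. Their neighbourhoods were sparse, with a median of 2 other protein-coding genes within 5000 bp (1 to 5), against 3 over all genes. The distances to the next protein-coding gene on both sides summed to a median of 6060 bp, with a range of 619 to 11259 bp, against 1782 bp over the 27434 genes with a neighbour on both sides. The gene with the widest flanks, ERF15, had the most peaks, and ERF105, with the narrowest, had none. ERF104 had peaks in both lists with 832 bp and 649 bp of free flank, and ERF1 had none with 5452 bp and 3776 bp. A relation between flank width and peaks was not tested.

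Group IX as a whole comprises 17 genes, and the other 10 were read in the same way. Of these 10, ORA59, ERF106 and ERF107 had peaks within 5000 bp in both lists and ERF1A in list 1. Over all 17 genes, 29.4% (5 of 17) had a peak in both lists, beside 12.2% of all genes. In list 1 the share was 47.1% (8 of 17), beside 21.4%, and in list 2 it was 29.4% (5 of 17), beside 15.4%. No test was made of these shares, because neighbours share peaks and the genes were picked with results known.

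ERF106, the close relative of ERF107 known as DEWAX2, stood high in both lists. A list 1 peak at chromosome 5, 2397925 to 2401735, covered 100% of the gene with a score of 274.49 and rank 158. In list 2 a peak at 2398932 to 2400171 covered 71.5% of it with a score of 270.67 and rank 178, and a second at 2400181 to 2401480 covered 27.1% with a score of 125.1. These peaks of list 2 were contained in that of list 1, which also covered 39.7% of the adjoining gene AT5G07590. In list 2 the first of these scores exceeded those at ERF104 and ERF15, and in list 1 the score at ERF106 lay between the ERF104 peak and the peak above ERF15.

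ORA59, the jasmonate and ethylene integrator, had a list 1 peak 1265 bp below it, at chromosome 1, 1878277 to 1881642, with a score of 99.26. Its list 2 peak stood on the opposite side, 3736 bp above, at 1887728 to 1888953, with a score of 101.76. These peaks did not overlap, and their nearest gene ends belonged to AT1G06148 and to MYB13. ORA59 therefore counts in both lists without a site common to them.

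Along the subgroups of the family, IXb (ERF5, ERF6 and ERF104 to ERF107) had 3 of 6 genes with peaks in both lists, ERF104, ERF106 and ERF107. Subgroup IXc (ERF1, ERF15, ORA59 and their relatives) had 2 of 8, ERF15 and ORA59. Subgroup IXa (ERF2, ERF1A and ERF13) had 0 of 3 in both lists and 2 of 3 in list 1, ERF2 and ERF1A. Over all genes the share was 12.2% in both lists and 21.4% in list 1. In IXb, ERF104 and ERF107 rest on the same pair of peaks, so its 3 genes stand for 2 loci. The subgroup assignment is background knowledge of the family and was added after the values were seen.

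**Figure D3:**
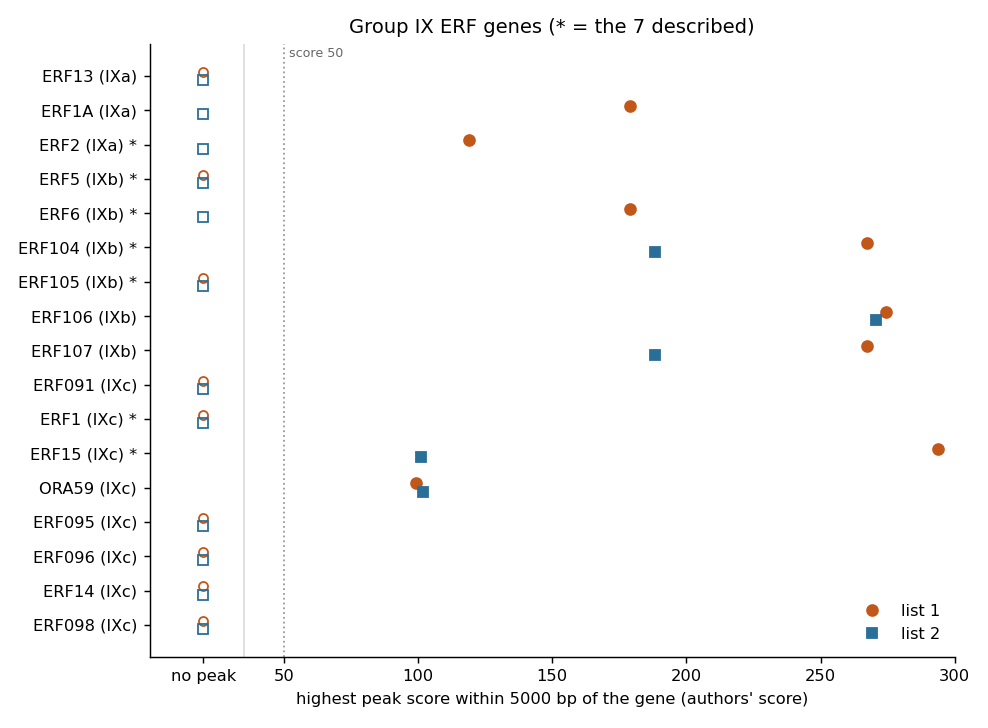
Highest peak score within 5000 bp of each of the 17 group IX genes, in list 1 (orange circles) and list 2 (blue squares), with open symbols at the left for genes without a peak and a dotted line at a score of 50. The 7 genes described first are starred, and 5 genes have filled symbols in both lists: ERF104, ERF106, ERF107, ERF15 and ORA59.

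The EAR-motif ERF genes and the CBF genes are related transcription factor genes and were read in the same way. The EAR-motif genes, which encode repressors that recruit TOPLESS corepressors, had 5 of 8 with peaks within 5000 bp in both lists (62.5%), and the CBF cold-response activators had 4 of 4, beside 12.2% of all genes. Among these 5 EAR-motif genes ERF8 scored highest, with 172.16 for a list 1 peak over the gene and 373.65 for a list 2 peak there. The highest scores near ERF4 and ERF10 were 55.44 and 61.15 in list 1, and 145.51 and 78.15 in list 2. Neither difference from the 28.6% of the 7 genes was tested. Neighbours again share peaks in these lists, as ERF11 with ERF12 and CBF1, CBF2 and CBF3 among themselves.

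**Figure D4:**
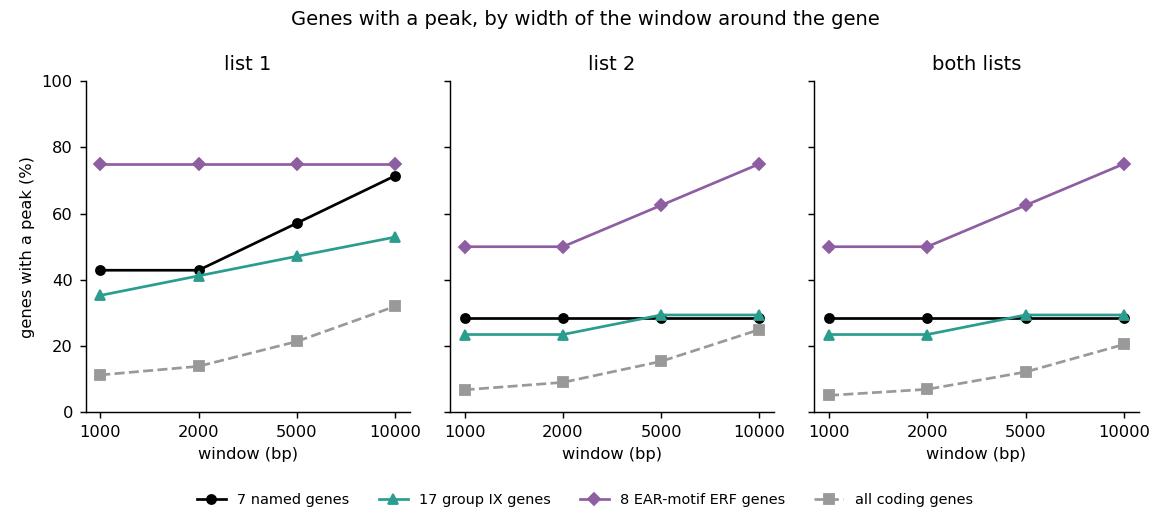
Share of genes (%) with a peak within 1000, 2000, 5000 or 10000 bp in list 1, in list 2 and in both lists, for the 7 genes, the 17 group IX genes, 8 EAR-motif ERF genes and all nuclear protein-coding genes. For the 7 genes the share in both lists is 28.6% at each of the 4 windows, while that of all genes rises from 5.13% to 20.5%.

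The window changed which of the 7 genes had list 1 peaks, but not which had peaks in both lists. In list 1, 3 genes had a peak within 1000 bp (ERF2, ERF15 and ERF104), beside 11.3% of all genes, and ERF6 joined them at 5000 bp. With ERF5, 5 had a peak within 10000 bp, beside 32% of all genes. Peaks in both lists were found for ERF15 and ERF104 at 1000, 2000, 5000 and 10000 bp alike. The share of all genes with peaks in both lists was 5.13% at 1000 bp, 6.97% at 2000 bp and 20.5% at 10000 bp, so the 28.6% of the 7 genes stood beside a background that depended on the window.

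Upstream of the group IX genes, 1 of 13 ethylene signalling genes had a peak within 5000 bp in both lists (7.69%, beside 12.2% of all genes). This was EBF2, an F-box gene whose product directs the breakdown of EIN3, with scores of 139.54 in list 1 and 57.48 in list 2. Its relative EBF1 had a list 2 peak over the gene with a score of 75.33. The kinase gene CTR1 had a list 2 peak over 6.56% of its length, at its lower end, with a score of 144.48 and the nearest gene end at HSFA3. Neither had a list 1 peak within 5000 bp. A peak in list 2 only was thus found for 15.4% (2 of 13), beside 3.28% of all genes. In list 2 the share was 23.1% (3 of 13), beside 15.4% of all genes, and in list 1 it was 7.69% (1 of 13), beside 21.4%. The receptor genes ETR1, ETR2, ERS1, ERS2 and EIN4 and the genes RTE1, EIN2, EIN3, EIL1 and XRN4 were without a peak within 5000 bp. That is 76.9% (10 of 13) with no peak in either list, beside 75.3% of all genes.

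Of 11 ethylene synthesis genes, 1 had peaks within 5000 bp in both lists (9.09%, beside 12.2% of all genes). This was ACS2, which encodes an ACC synthase, and at 2000 bp none had them, beside 6.97% of all genes at that window. At ACS2 the list 1 peak lay 3328 bp above the gene with a score of 129.6, and list 2 had peaks 4531 bp above and 1674 bp below it with scores of 93.1 and 169.9. Another gene had the nearest end to each of these peaks. ACS7, a further ACC synthase gene, had a list 2 peak 2098 bp above it with a score of 73.31 and no list 1 peak within 5000 bp. A peak in list 2 only was thus found for 9.09% (1 of 11), beside 3.28% of all genes.

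Of 5 kinase genes of the MPK3 and MPK6 cascade, MKK9 alone had peaks in both lists (20%, beside 12.2% of all genes), with a score of 110.91 for a list 1 peak over the gene and 58.12 and 53.04 for list 2 peaks on its flanks. MPK3, MPK6, MKK4 and MKK5 had none within 5000 bp in either list (80%, 4 of 5, beside 75.3% of all genes).

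Among 6 defence genes that ERF1 and ORA59 activate, PR4, a hevein-like gene, had peaks in both lists (16.7%, beside 12.2% of all genes), 1 bp above it with a score of 130.2 in list 1 and 3330 bp above it with a score of 288.16 in list 2. The nearest gene end to both was IAA16, an auxin repressor gene, and the 4 defensin genes and PR3 had no peak. Of 5 genes reported downstream of ERF6, ERF11 had peaks in both lists (20%, beside 12.2% of all genes), with scores of 126.91 and 107.51 for peaks whose nearest gene was ERF12. GA2OX6, a gibberellin-inactivating enzyme gene, had a list 1 peak over it with a score of 106.89. It was the gene with a peak in list 1 only (20%, 1 of 5, beside 9.26% of all genes). WRKY33, MYB51 and STZ had none in either list (60%, 3 of 5, beside 75.3% of all genes).

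By score, the genes most like ERF104, which had the best mean rank of the 7 (227.0 over both lists, against 388.5 for ERF15), were AT1G26797 and a group of 4 neighbours that share their peaks, PLP9, AT3G63210, AT3G63215 and AT3G63220. AT1G26797 had highest scores of 273.41 and 184.85, at a distance of 0.0128 from ERF104 on the log10 scale over the 2 lists. The 4 neighbours had scores of 255.34 and 188.04, at a distance of 0.0198. Likeness here means only a similar pair of scores within 5000 bp.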

How the data were processed

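The deposited files are 2 peak lists. The submitters' processing notes name the build TAIR10 and the tools MACS 1.4.2, SAMtools and BWA 0.7.10-r789. Settings of these tools are not stated there. Each deposited row gives chromosome, start, end, name and a score, the authors' value per peak. Peaks were called per replicate, per the labels, which name a file for each tagged library and its control. The lists hold no counts, so no intervals, errors or tests across libraries could be computed.

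Genes came from a RefSeq table of the assembly TAIR10.1, which gives gene ends but no strand, and whose nuclear sequence is that of TAIR10. All 68 listed genes matched by locus code. A gene was counted when a peak of the list lay within 5000 bp of either end or over it, and counted in both lists when this held in each, whether or not the peaks overlapped. Distances run from the peak edge to the nearest gene end. Pandas 2.3.3 and numpy 2.4.6 were used, and the assignment was tested on simulated data.

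The members and gene lists were chosen with earlier results of these data known. The named genes are the 7, all group IX genes, listed genes with peaks in both lists, genes with the nearest end to a peak near the 7, and the genes with the most similar scores, where 4 tied. Other listed genes were named after their values were seen. Promoter windows, sequence motifs and protein comparisons were planned but need strand or sequence and were not analysed here. For 1 ethylene synthesis gene results are not reported here.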

Additional observations from a re-analysis of the deposited data

How the results depend on the processing

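Counts of genes with peaks in both lists were repeated under 11 other settings, of which windows at both gene ends were added after seeing the data. For the 7 genes the count of 2 became 1 (ERF15) when peaks had to overlap over 50% of both, since the list 2 peak took up 43.1% of the list 1 peak at ERF104, and 1 (ERF15) when a peak counted only for the gene with the nearest end, since the list 2 peak at ERF104 went to ERF107. In the other settings that use both lists it stayed at 2. With scores of at least 100, ERF15 was kept by the list 2 peak above it (101.05), since the list 2 peak over it scored 87.83. With 1 list at a time (leaving out a replicate) the count for the 7 genes was 2 to 4. For the 17 group IX genes the count of 5 became 1 under 50% overlap and 2 with the nearest end, and was 5 to 8 with 1 list. Without ORA59 it was 4 with scores of at least 100 and with overlap by at least 1 bp. The same 4 remained with windows of 1000 bp or 2000 bp and with windows at the gene ends. For the EAR-motif genes the count of 5 became 3 with scores of at least 100, 3 under 50% overlap and 3 with the nearest end, and was 5 to 6 with 1 list. It was 4 with windows of 1000 bp or 2000 bp and at the gene ends, and 6 with windows of 10000 bp. For ethylene signalling genes the count of 1 became 0 with scores of at least 100, 0 under 50% overlap and 3 with windows of 10000 bp, and was 1 to 3 with 1 list. The CBF count was 4 in each of the 11 settings. The counts of 1 for ethylene synthesis genes (ACS2), defence genes (PR4) and genes downstream of ERF6 (ERF11) became 0 under 50% overlap, with windows of 1000 bp or 2000 bp, with the nearest end and with windows at the gene ends. Ethylene synthesis genes reached 3 with windows of 10000 bp and 2 with list 2 alone, and genes downstream of ERF6 reached 2 with list 1 alone. The count of 1 for kinase genes (MKK9) became 0 with scores of at least 100 and under 50% overlap. Over all genes the count of 3339 ranged from 849 with the nearest end to 5880 with list 1 alone. The share of all genes was 12.2% in the main setting. It became 5.8% under 50% overlap, 11.5% with overlap by at least 1 bp, 3.09% with the nearest end and 5.33% with scores of at least 100. Windows of 1000, 2000 and 10000 bp gave 5.13%, 6.97% and 20.5%, and windows at the gene ends gave 5.04%. In each setting where a count above fell, the share of all genes fell too. The upstream and promoter counts were not run, since they need strand. No paired analysis was possible because the lists were called per replicate and no result comes from a test. Depth is unknown, so peaks missing from a list may be below detection.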

Other observations

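Some ethylene genes without a peak within 5000 bp had peaks of both lists a little farther away. ACO4, which encodes an ACC oxidase, had a list 1 peak 6413 bp below it with a score of 381.59 and rank 80, and a list 2 peak 8235 bp below it with a score of 458.85 and rank 66. The nearest gene end to both belonged to AT1G04990. ACS8, an ACC synthase gene, had a list 1 peak 6510 bp above it with a score of 492.08 and rank 46, and a list 2 peak 7051 bp above it with a score of 286.59 and rank 167, both with the nearest end at MYB87. ETR1, an ethylene receptor gene, had peaks 5514 bp and 5693 bp above it with scores of 238.17 and 277.36, both nearest to RGL1, which encodes a DELLA repressor of gibberellin responses. These scores exceed those of most peaks near the 7 group IX genes, and another gene had the nearest end to each of these peaks. Of the 11 ethylene synthesis genes 3 had peaks in both lists within 10000 bp (27.3%), and of the 13 ethylene signalling genes 3 had them (23.1%), beside 20.5% of all genes. The genes named here were picked after their values were seen.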
